A study of Xenopus laevis with 4 samples.

Results

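Solute carrier genes, whose symbols start with slc and a family number, encode membrane proteins that move amino acids, sugars, ions, metals, vitamins and metabolites across the cell surface or the membranes of organelles. The members were the probe sets of an Affymetrix array for the frog Xenopus laevis that carry 1 such symbol and whose mean signal reached the 40th percentile of all non-control probe sets. Of 265 solute carrier probe sets, 183 met this rule, for 146 gene symbols from 40 families, among 32539 non-control probe sets in all. They were thus chosen by symbol and by mean signal over all arrays, with earlier results of these data known. The rule used no difference between groups, but a probe set high in only some groups can reach the limit through them.

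The arrays measured animal caps, explants of the presumptive ectoderm, from embryos whose strain the labels do not give. All embryos were injected with RNA at the 2-cell stage, with ICD for 2 of the arrays, DBM for 1 and HMM for 1. The caps were cut at stage 9 to 10, kept in Danilchik's medium with albumin and harvested at a stage equivalent to 12, and total RNA was extracted. By common usage ICD stands for the Notch intracellular domain, a form that signals without ligand, and DBM for a form of the Notch effector rbpj with a mutated DNA-binding domain. The labels do not say what HMM stands for. Uninjected caps were not analysed here, so each difference lies between injected groups. The labels tell neither the clutch behind each ICD array nor how many caps each array pooled, so p-values reflect the spread of these arrays alone, which may be technical.

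Solute carriers fall into families by sequence, and a family often carries a related set of substrates. Some act alone, while others need a partner, such as the heavy chain slc3a2 that brings light chains of the slc7 family to the cell surface. In the tadpole epidermis that these caps form, ionocytes are known for chloride and bicarbonate exchangers of the slc26 and slc4 families, and small secretory cells are known for storing serotonin in vesicles.

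The 2% trimmed mean signal was 151 on the first ICD array and 377 on the second, against 409 for DBM and 382 for HMM, so the first ICD array was the dimmest, and each array was rescaled to the common trimmed mean before any comparison. All signals below are MAS5 signals rescaled in this way, an intensity on a linear scale. All differences are on the scale of log2(signal + 17.99), which understates the change of dim probe sets. Each fold is computed from such a difference, so it can be smaller than the ratio of the signals printed beside it. Across the members, which are not independent replicates, r was 0.96 between the ICD arrays and 0.95 between DBM and HMM, and lowest, 0.89, between ICD replicate 2 and HMM. The ectoderm markers tfap2a, dlx5, grhl3 and krt12.4 were over the signal limit in all 7 of their probe sets. Of these, 1 was higher and 2 were lower with ICD, beside 1.9% higher and 2.04% lower over all probe sets tested.

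With ICD, 11 solute carrier probe sets were lower and 1 was higher than the mean of DBM and HMM (limma, Benjamini-Hochberg adjusted p under 0.05 over 19523 probe sets). They stood for 9 genes that fell, carriers of thiamine, sugar, anions, monoamines, nucleotides, neutral amino acids, carnitine and citrate with the amino acid carrier heavy chain among them, and for 1 zinc carrier gene that rose. The called share was 6.56% of the members against 3.93% of all probe sets tested. The lower calls made up 6.01% of the members against 2.04% of all probe sets, and the higher call 0.546% against 1.9%. The remaining 171 members did not pass, and the median difference of all 183 was -0.18, beside -0.01 over all probe sets tested. Without the filter on low signal, the median of all 265 solute carrier probe sets was -0.09, beside 0.01 over the whole array. Of the members, 177 reached the signal limit in both the ICD mean and the mean of DBM and HMM, 1 reached it only through ICD and 5 only through DBM and HMM. Among those 5 were 4 of the 11 lower calls, those of slc19a3.L, slc2a12.L, slc26a4l.L and the second probe set of slc18a1.S. Their place among the members rests on the groups where they were high. In extracts of whole caps, fewer cells of a type and less RNA per cell cannot be told apart.

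**Figure D1:**
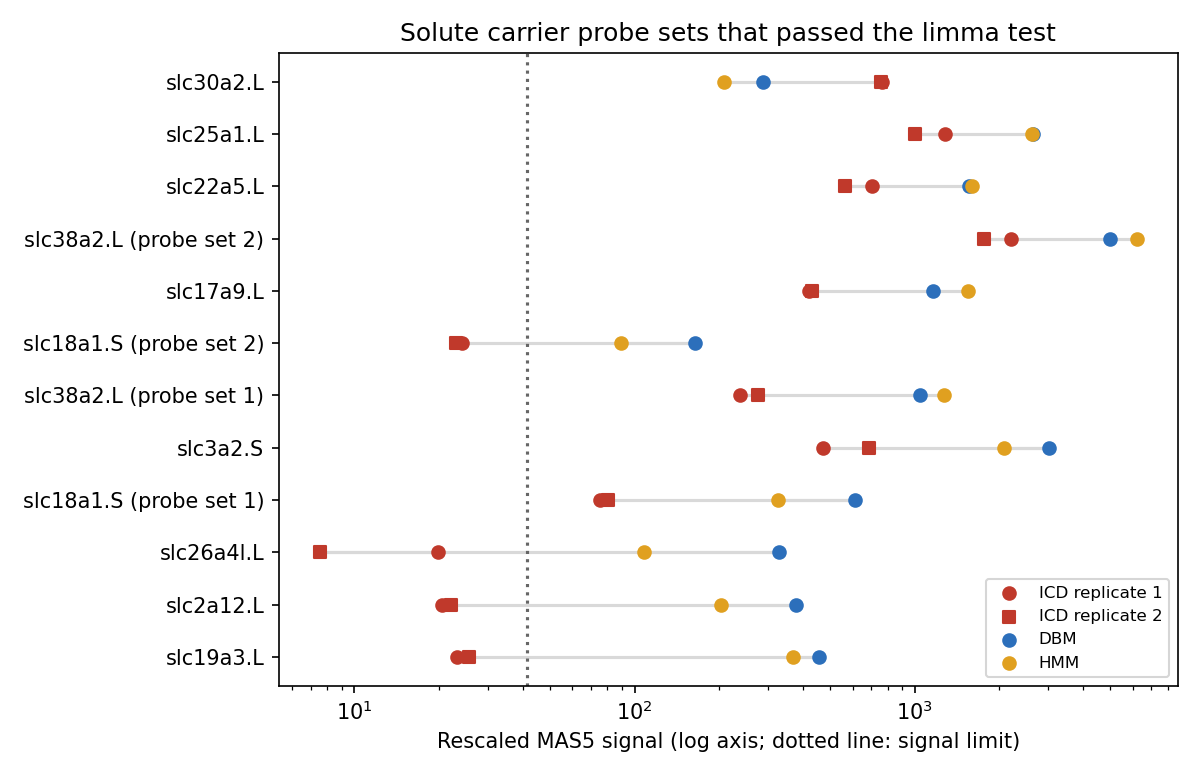
Rescaled MAS5 signal (log axis) of the 12 solute carrier probe sets that passed the limma test, with a point for each array: ICD replicates 1 and 2 in red, DBM in blue and HMM in yellow. The dotted line is the signal limit of 41.4; in 11 of the probe sets both ICD points lie left of DBM and HMM, and in slc30a2.L both lie right.

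The largest difference was that of slc19a3.L (Entrez Gene 379156), which encodes a thiamine transporter. Its signal was 23.2 and 25.6 on the ICD arrays, against 457 with DBM and 366 with HMM. The log2 difference was -3.33 ± 0.32 (SE; limma, adjusted p = 3.74e-03). Both ICD signals lie under the signal limit of 41.4, so the probe set was tested only through its DBM and HMM signals. The size of the difference also varies with the offset. Over the alternative settings its extremes were -3.84 and -2.32. It was the call that was kept under all 12 of them. The related thiamine transporter gene slc19a2.S, over 2 probe sets, did not pass, with log2 differences of -0.65 and -0.25.

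slc2a12.L (Entrez Gene 734962), for a facilitative sugar transporter of the GLUT family, had signals of 20.6 and 22.1 with ICD, against 378 with DBM and 204 with HMM. The groups did not overlap. Again neither ICD array reached the limit, so the probe set was tested only through its DBM and HMM signals. It fell by 2.91 ± 0.32 on the log2 scale (SE; adjusted p = 6.79e-03), between -3.45 and -1.92 over the settings. In the class of sugar and monocarboxylate carriers 1 of 21 probe sets fell, that of slc2a12.L (4.76%, beside 2.04% of all probe sets tested). The other 20 probe sets of the class did not pass. Among them the glucose carrier gene slc2a1.L had 324 and 396 with ICD, against 384 with DBM and 177 with HMM, and slc2a2.L had 5214 and 4637 with ICD, against 4109 with DBM and 3372 with HMM (both genes chosen after their values were seen). For slc16a12.S, a monocarboxylate carrier gene, the ICD signals of 147 and 335 both lay above 107 with DBM and 65.6 with HMM, but lay far apart from each other, and the difference of 1.24 ± 0.43 (SE) did not pass (adjusted p = 0.225). The lactate exporter gene slc16a3.L had 4691 and 3675 with ICD, against 7395 with DBM and 6613 with HMM, a difference of -0.75 that did not pass.

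Among carriers of amino acids, peptides and neurotransmitters, the class median was 0.02. In this class 3 of 22 probe sets fell (13.6%, beside 2.04% of all probe sets tested) and none rose. Both probe sets of slc38a2.L (Entrez Gene 446910), for a sodium-coupled carrier of small neutral amino acids, were among them. The first had 238 and 276 with ICD, against 1044 with DBM and 1271.5 with HMM, a 4.27-fold difference (adjusted p = 6.17e-03). The second had 2203 and 1764 with ICD, against 4995 with DBM and 6200 with HMM, 2.81-fold apart (adjusted p = 0.0242). The probe sets thus moved the same way at different signal levels. In both, HMM lay above DBM, unlike most of the other lower calls.

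slc3a2.S (Entrez Gene 379938) encodes the heavy chain of heteromeric amino acid exchangers. Its signal was 469 and 688 with ICD, against 3019.8 with DBM and 2085 with HMM. It fell by 2.11 ± 0.25 on the log2 scale (SE; adjusted p = 8.53e-03), and the groups did not overlap. The probe sets of the other copy, slc3a2.L, lay under the signal limit on every array and were not tested. The first had 12.7 and 11.9 with ICD, against 25.1 with DBM and 32.2 with HMM, without overlap. The second had 11.2 and 8.22 with ICD, against 12.7 with DBM and 8.71 with HMM, with overlap. The light chains of the slc7 family that pair with the heavy chain did not pass. slc7a8.L had a log2 difference of 0.46 and slc7a8.S of -0.50. Over 2 probe sets each, slc7a6.L gave -0.22 and -0.13 and slc7a7.L gave 0.33 and 0.08, while the mean signals of the slc7a5 probe sets did not reach the limit (slc7a5, slc7a6 and slc7a7 were chosen after their values were seen). Of the glutamine carrier slc1a5, slc1a5.S had 2082 and 1109 with ICD, against 1111 with DBM and 1447 with HMM, with no separation of the groups, and the 2 probe sets of slc1a5.L over the limit gave -0.71 and -0.24, which did not pass. slc6a14.2.L, for a broad amino acid carrier, was at 479 and 667 with ICD, against 396 with DBM and 326 with HMM, a difference of 0.63 that did not pass (adjusted p = 0.343).

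**Figure D2:**
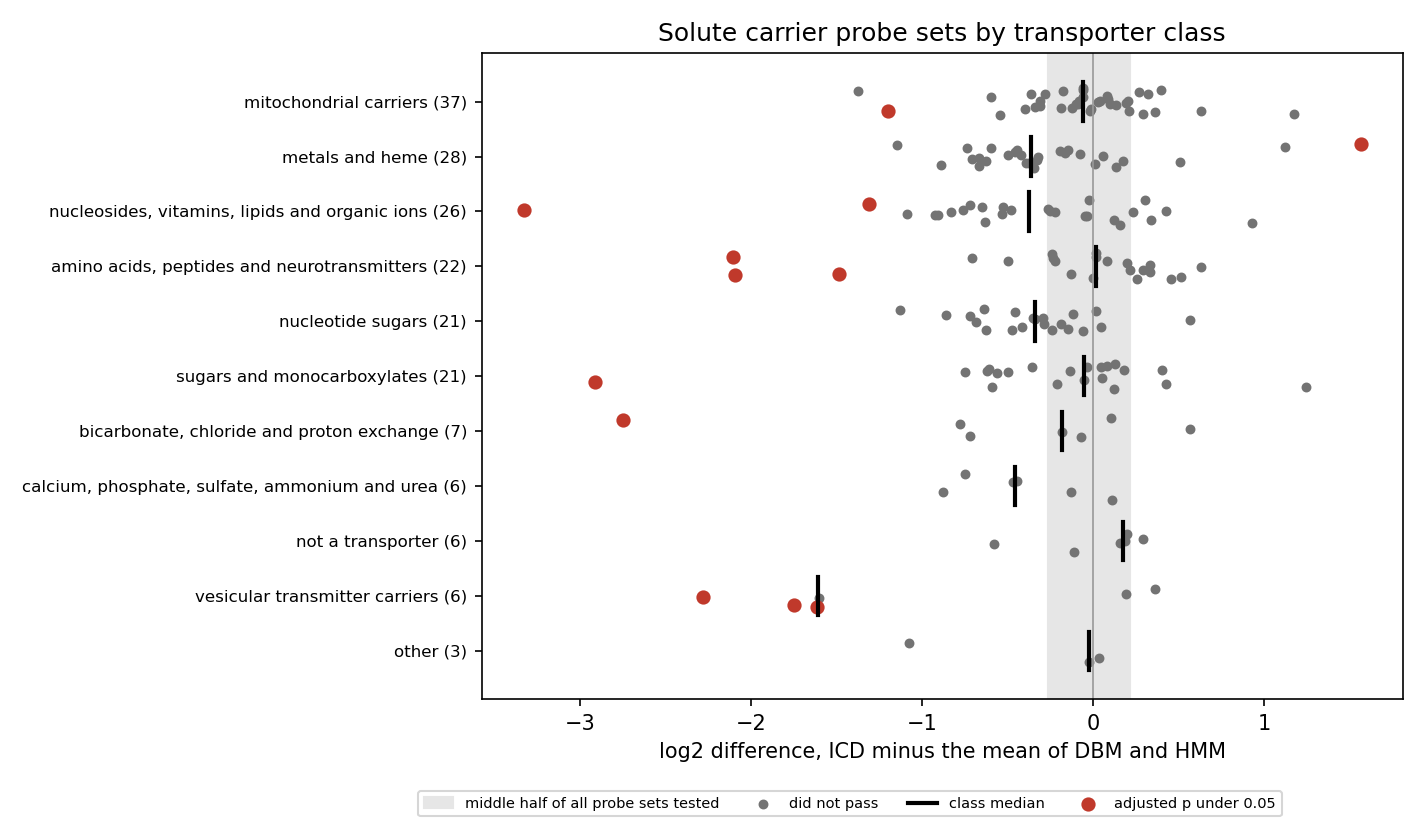
log2 difference, ICD minus the mean of DBM and HMM, of the 183 solute carrier probe sets (points), by transporter class with the number of probe sets in brackets. Red points passed the limma test, black bars are class medians, and the grey band is the interquartile range of all 19523 probe sets tested; the vesicular class has the lowest median of these filtered probe sets, at -1.61, which was -0.09 without the filter on low signal.

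Vesicular carriers load transmitters into storage vesicles. The class takes in the slc17, slc18 and slc32 families by number, and not all of their members do so. Of its 6 probe sets 3 fell (50.0%, beside 2.04% of all probe sets tested). slc18a1.S (Entrez Gene 379101), for a vesicular monoamine transporter, was measured by 2 probe sets. The first had 75.2 and 80.2 with ICD, against 614 with DBM and 326 with HMM, a 4.87-fold difference (adjusted p = 9.59e-03). The second had 24.3 and 23.0 with ICD, against 164 with DBM and 89.2 with HMM, a log2 difference of -1.75 (adjusted p = 0.0348). Both of these ICD signals lie under the limit, so the probe set was tested only through its DBM and HMM signals. Its difference ran from -2.16 to -1.03 over the settings. The call was lost without the filter, without DBM and with DBM and HMM pooled. With a stricter filter on low signal the probe set was not tested. Both probe sets placed the arrays in the same order of groups, with DBM highest. The related slc18a2.L, with 117 and 186 with ICD, against 166 with DBM and 73.1 with HMM, did not pass and its groups overlapped (chosen after its values were seen).

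slc17a9.L (Entrez Gene 100101297) encodes a vesicular nucleotide transporter, which fills vesicles with ATP. Its called probe set had 418 and 431 with ICD, against 1160.0 with DBM and 1549 with HMM, 3.07-fold apart (adjusted p = 0.0106). A second probe set had a like difference of -1.61 ± 0.36 (SE) from signals of 75.2 and 148 with ICD, against 388 with DBM and 335 with HMM, and did not pass (adjusted p = 0.0691). Its ICD arrays differed more from each other than those of the called probe set. The class's calls are those of a pair of genes, and its median of -1.61 comes from the 6 probe sets, for 4 genes, over the signal limit. Over all 10 vesicular probe sets, without the filter, the median was -0.09 and 2 fell.

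The class of bicarbonate, chloride and proton exchange, ion exchangers for short, was taken by family number. Its members were of the slc4, slc12 and slc26 families, and not all of them are exchangers. In this class 1 of 7 probe sets fell (14.3%, beside 2.04% of all probe sets tested). It was slc26a4l.L (Entrez Gene 496380), named for its likeness to slc26a4, the anion exchanger pendrin. Its signal was 19.9 and 7.52 with ICD, against 328 with DBM and 108 with HMM, and the log2 difference was -2.75 ± 0.36 (SE; adjusted p = 0.0106). The ICD signals lie under the limit, so the probe set was tested only through its DBM and HMM signals. DBM stood at about 3 times HMM, and the log2 difference ran from -3.50 to -1.65 over the settings. The call was lost with DBM and HMM pooled and without DBM, and the probe set was not tested with a stricter filter on low signal. Other ionocyte exchangers, slc26a4.1.L, both copies of slc26a4.3 and slc4a1.L, had mean signals under the limit, and the highest of their signals was 43.3, for slc4a1.L with DBM. slc26a6, another anion exchanger gene, had 228 and 273 with ICD, against 194 with DBM and 137 with HMM, and did not pass (difference 0.56; chosen after its values were seen). The bicarbonate carrier gene slc4a7.L had a difference of -0.78 that did not pass.

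Markers of other cell types moved beside these calls. The marker lists were chosen with earlier results of these data known, so their counts are no independent test of the cell types. Over all probe sets tested, 2.04% were lower and 1.9% higher with ICD. Of 9 ionocyte probe sets over the limit 8 were lower and none was higher with ICD, and the signals of all 10 summed to 467 and 463 with ICD, against 11929 with DBM and 6885 with HMM. All 5 multiciliate cell probe sets were lower, with sums of 953 and 1043 with ICD, against 15276 with DBM and 7904 with HMM, and itln1.L of goblet cells was at 640.3 and 739.6 with ICD, against 11390 with DBM and 5003 with HMM. Of 6 endoderm probe sets over the limit, all for gata4, gata6 or hhex, 3 were lower. All 11 endoderm probe sets summed to 279 and 215 with ICD, against 1102 with DBM and 1243 with HMM. The sox17a probe sets lay under the limit on every array and were not tested. In each of them the ICD arrays overlapped DBM or HMM. No probe set was found for sox17b. Among the probe sets over the limit, those of ubp1.L, atp6v1b1.L, atp6v1g3.L and mcidas.S had both ICD signals under it. The same held for a ca12.L probe set and for those of gata4.L, gata6.L, gata6.S and hhex.L. These were tested only through their DBM and HMM signals. Of 4 mesoderm probe sets over the limit 1 was higher, and all 9 summed to 678 and 799 with ICD, against 464 with DBM and 232 with HMM. The higher one was of not.L, at 491 and 379 with ICD, against 64.8 with DBM and 30.2 with HMM. Much of the ICD sums comes from this probe set, so the sums do not show the mesoderm markers higher as a set. A not.S probe set gave 1.13, while tbxt.L and tbxt.S went the other way, at -1.035 and -0.82, and these did not pass. The mean signals of the myod1 and msgn1 probe sets and of another not.S probe set lay under the limit, and these were not tested. On ICD replicate 2 alone myod1.S (54.3), msgn1.S (45.7) and this not.S probe set (51.6) exceeded it. None of these probe sets was at 0 on any array, which says nothing of presence, since no detection call was used. The part of these cell types in the solute carrier differences was not tested.

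slc22a5.L (Entrez Gene 380592), for a carnitine transporter of the cell surface, had 702 and 564 with ICD, against 1567 with DBM and 1608 with HMM. This is a 2.48-fold difference (adjusted p = 0.0269), while a second probe set of the gene, at 792 and 488 with ICD, against 845 with DBM and 908 with HMM, did not pass (difference -0.48). The groups did not overlap in either probe set. The call was kept in 6 of 12 alternative settings, and was lost without the filter, without the intensity trend, without DBM and without HMM. In the same class of nucleoside, vitamin, lipid and organic ion carriers, 2 of 26 probe sets fell (7.69%, beside 2.04% of all probe sets tested). None rose, and the class median was -0.37, which was -0.14 over 36 probe sets without the filter. The choline carrier family gene slc44a4.L was highest in it, at 686 and 651 with ICD, against 358 with DBM and 328 with HMM, a difference of 0.93 ± 0.23 (SE) that did not pass (adjusted p = 0.0862). The probe sets of slc29a2.L, a nucleoside carrier gene, gave -0.72, -0.91 and -0.93, and none of the 3 passed (chosen after their values were seen). The brighter probe set of slc22a4.L, an organic cation carrier gene, had 9774 and 6423 with ICD, against 11948 with DBM and 12717 with HMM, and a difference of -0.64 that did not pass, and its other probe set gave -0.83 and did not pass either.

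The slc25 family, classed here by its number as mitochondrial carriers, mostly moves metabolites across the inner mitochondrial membrane. It formed the largest class, with 37 probe sets, of which 1 fell (2.7%, beside 2.04% of all probe sets tested). slc25a1.L (Entrez Gene 379891), the citrate carrier, had 1280.5 and 1006 with ICD, against 2650.0 with DBM and 2616 with HMM, 2.30-fold apart (adjusted p = 0.0387). DBM and HMM were close to each other here and well above both ICD arrays. This call too was kept in 6 of the 12 settings and lost without the filter, without the trend, without DBM and without HMM, with an adjusted p of up to 0.175. The class median was -0.06. In 28 of the 37 the ICD arrays overlapped DBM or HMM, and the share that did not overlap was 24.3% beside 42.1% over all probe sets. The 3 probe sets of the ADP/ATP carrier gene slc25a5.L had signals of 20159 to 21830 on ICD replicate 1 and 13327 to 14341 on ICD replicate 2, against 14658 to 15681 with DBM and 13592 to 15342 with HMM. Their differences of 0.19 to 0.21 did not pass.

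The call on the higher side was slc30a2.L (Entrez Gene 443779), a zinc transporter gene whose product loads zinc into vesicles. Its called probe set had 763 and 758 with ICD, against 288 with DBM and 209 with HMM, a 2.96-fold difference (adjusted p = 0.0167). Its other probe set had 7474 and 5932 with ICD, against 3245 with DBM and 2858 with HMM, and a log2 difference of 1.12 ± 0.26 (SE; adjusted p = 0.0744), which passed with quantile normalization only. A further zinc carrier gene of the same family, slc30a8.L, had 14264 and 11084 with ICD, against 9766 with DBM and 7984 with HMM, a difference of 0.51 that did not pass.

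Most other carriers of metals and heme had small differences of the opposite sign. Of the 28 probe sets 1 rose (3.57%, beside 1.9% of all probe sets tested) and none fell, while the median was -0.36. In 16 of them both ICD arrays lay below DBM and HMM, and in 4 both lay above. These are 57.1% and 14.3% of the class, beside 22.8% and 19.3% of all probe sets tested. Within the zinc exporter family slc30 the same counts were 8 and 3 of 14, and within the zinc importer family slc39 they were 4 and 0 of 5. The lowest value of the class was that of slc49a3.S, at 127 and 82.1 with ICD, against 250 with DBM and 248 with HMM (difference -1.15, adjusted p = 0.143).

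Many carriers of the slc35 family bring sugar donors into the Golgi apparatus and endoplasmic reticulum for glycosylation. The nucleotide sugar class takes in the whole family by its number, and not all of its members carry nucleotide sugars. None of their 21 probe sets passed, and in 10 of them both ICD arrays lay below DBM and HMM, while in 1 both lay above. These are 47.6% and 4.76%, beside 22.8% and 19.3% of all probe sets tested. Their median was -0.34. slc35c2.S had 155 and 168 with ICD, against 336 with DBM and 416 with HMM, a difference of -1.13 ± 0.27 (SE; adjusted p = 0.0830). slc35b2.S, at 218 and 294 with ICD, against 515 with DBM and 437 with HMM, gave -0.86 (adjusted p = 0.175). slc35a3.2.S had the highest difference, 0.56, from 3573 and 3197 with ICD, against 2634 with DBM and 1972 with HMM (chosen after its values were seen).

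Of 6 probe sets for carriers of calcium, phosphate and sulfate none passed, and the median was -0.46. Its sign depends on the filter on low signal: over all 17 probe sets of the class, without it, the median was 0.07. The 3 probe sets of slc13a4l.S, a gene of the sodium-sulfate carrier family, had differences of -0.88, -0.75 and -0.47, and in each the ICD arrays lay below DBM and HMM. Scaffold and other proteins that carry a carrier's name but are not membrane transporters, slc9a3r1, slc9a3r2 and slc7a6os, had 6 probe sets and none passed. Those of slc9a3r2.S gave 0.29 and 0.20, and those of slc7a6os.L gave -0.58 and -0.12. Of the 3 probe sets outside these classes, the lysosomal carrier family gene slc66a2.1.L gave -1.08 from 386 and 275 with ICD, against 721 with DBM and 696 with HMM (adjusted p = 0.0817).

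Over all 183 members the ICD arrays lay below both DBM and HMM in 72 and above both in 24, and overlapped them in 87. These are 39.3% and 13.1% of the members, beside 22.8% and 19.3% of all probe sets tested. With quantile normalization the members' shares were 37.7% and 13.7%, beside 21.8% and 21.7%. With scaling to a common median 64 members lay below and 26 above, beside 19.3% and 22.7% of all probe sets. The class medians of metals, nucleotide sugars, and calcium, phosphate and sulfate carriers, of nucleoside, vitamin, lipid and organic ion carriers, of ion exchangers and of vesicular carriers stayed below 0 under all 3 scalings. Those of mitochondrial carriers and of sugar and monocarboxylate carriers, at -0.06 and -0.05, became 0.00 and 0.01 with scaling to a common median. The filter moved some medians more than the scaling did. Without it those of metals and of nucleotide sugars were both -0.35, and that of ion exchangers was -0.16, while the vesicular median was -0.09 and that of calcium, phosphate and sulfate carriers was above 0, at 0.07.

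Against DBM alone 8 members were lower and none higher, and against HMM alone 5 were lower and 1 higher. Against DBM the members' share was 4.37%, beside 2.32% of all probe sets, of which 1.48% were lower and 0.84% higher. Against HMM it was 3.28%, beside 1.74%, of which 0.507% were lower and 1.23% higher. These contrasts share the ICD arrays. The calls that passed against both were 5 probe sets, those of slc19a3.L, slc2a12.L, slc3a2.S, slc17a9.L and the first of slc38a2.L. slc26a4l.L and both probe sets of slc18a1.S passed against DBM and not HMM. slc30a2.L passed against HMM, with 1.78 ± 0.28 (SE), and not DBM, with 1.35 ± 0.28 (SE). The second probe set of slc38a2.L, slc22a5.L and slc25a1.L passed only against the mean of the 2. Whether an effect against DBM differs from that against HMM was not tested, since each has 1 array.

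**Figure D3:**
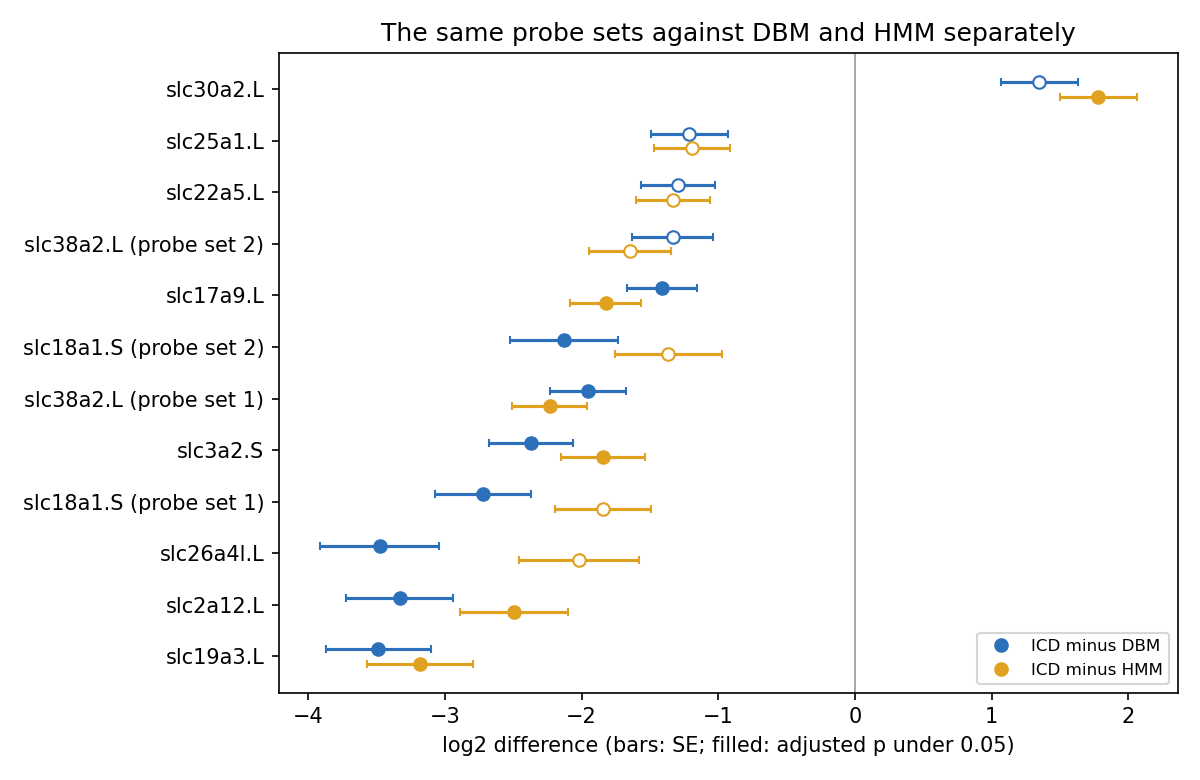
log2 difference of the 12 called solute carrier probe sets for ICD minus DBM (blue) and ICD minus HMM (yellow), with bars for the SE of the limma fit and filled points for an adjusted p under 0.05. In slc26a4l.L the difference was -3.48 against DBM and -2.02 against HMM, the widest gap among the 12.

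The values of DBM set against HMM carry no test, since each is a single array. A log2 difference of at least 1 was found in 11 members with DBM higher and 5 with HMM higher, 8.74% of the members beside 6.75% of all probe sets tested. By direction the members' shares were 6.01% and 2.73%, beside 3.86% and 2.88%. The highest was slc25a24.L, a calcium-dependent mitochondrial carrier gene, with 453 in DBM and 77.3 in HMM. It was followed by slc25a22l.S with 1452 in DBM and 454 in HMM, slc7a8.S with 141 in DBM and 36.4 in HMM, and the mitochondrial S-adenosylmethionine carrier gene slc25a26.L with 446 in DBM and 141 in HMM. The lowest was a probe set of slc19a2.S with 79.6 in DBM and 413 in HMM. Next came a probe set of slc25a28.L with 23.0 in DBM and 131 in HMM, slc16a3.S with 109 in DBM and 352 in HMM, and slc66a1l.S with 47.1 in DBM and 126 in HMM. In most of these the ICD arrays also lay far apart. slc25a24.L had 214 on ICD replicate 1 and 967 on ICD replicate 2, and the named slc19a2.S probe set had 292 and 78.0. Their log2 differences, ICD minus the mean of DBM and HMM, were 1.17 and -0.25, and neither gave a call.

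In 15 of the 16 members at least 1 apart, ICD replicate 2 differed from ICD replicate 1 in the same direction as DBM from HMM. The same held for 91.9% of the 1317 such probe sets over the array, so the members' share of 93.8% is near the background. Over the 183 members these differences, which share no array, correlated at r = 0.65 across probe sets, and at 0.64 over all probe sets tested. The median spread between the ICD arrays was 0.31 on the log2 scale for the members and 0.29 for all probe sets, and 13 members had ICD arrays at least 1 apart. Whether ICD replicate 1 and HMM, or ICD replicate 2 and DBM, shared a step of handling is not given in the labels and was not tested.

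Several genes were seen by more than 1 probe set or in both copies, which the suffixes L and S mark in this allotetraploid species. The 32 symbols with several member probe sets had a median gap of 0.26 between their highest and lowest log2 differences and none over 1. In 3 of them, slc17a9.L, slc22a5.L and slc30a2.L, some but not all probe sets passed. For 24 genes both the L and the S copy were members, each taken by its brightest probe set, and the median gap was 0.27. Among copies of named genes that did not pass, slc25a24.S gave 0.08, slc25a46.S gave -0.36, slc66a1l.L gave -0.03 and the 2 probe sets of slc25a28.S gave 0.27 and -0.09. The gap exceeded 1 for slc25a24 and for slc48a1, a heme carrier gene (chosen after its values were seen), and no called gene had both copies among the members. Probe sets can cross-hybridize between copies, so each is named as its annotation gives it.

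Just over the signal limit stood slc1a5.L with a mean signal of 42.8, slc49a4.L with 45.9 and slc6a13.L with 44.4. Just under it stood slc13a3.L with 38.5, slc25a1-b with 36.8 and slc25a46.L with 35.8. In all, 82 solute carrier probe sets lay under the limit and were not tested, 22 of them for amino acid, peptide and neurotransmitter carriers. The slc5 family of sodium-coupled carriers had none of its 4 probe sets over it.

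Other genes of membrane transport gave 1 higher and 4 lower calls among 103 probe sets, 4.85% beside the 3.93% background. The efflux pump gene abcg2.L was lower, with 18.4 and 13.5 with ICD, against 164 with DBM and 102 with HMM. So was the calcium pump gene atp2a3.L, with 200.1 and 253 with ICD, against 946 with DBM and 675 with HMM. The remaining lower calls were atp6v1g3.L (log2 difference -2.36) and atp6v1b1.L (-1.77), for subunits of the proton pump that are also among the ionocyte markers. In abcg2.L, atp6v1g3.L and atp6v1b1.L both ICD signals lie under the limit, so they were tested only through their DBM and HMM signals. The proton pump subunit gene atp6v1f.L was higher, by 1.38. None of 20 major facilitator domain probe sets, 11 for potassium channels, 11 for chloride channels, 6 for the sodium pump and 4 for aquaporins passed.

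The calls depended on the arrays used. Of the 12, 6 were kept without DBM and 7 without HMM, where the contrast is ICD against the remaining RNA alone. Pooling DBM and HMM into 1 group kept 10. Dropping ICD replicate 1 from that fit kept 2, and dropping ICD replicate 2 kept 1. slc19a3.L was the call kept in each of these.

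**Figure D4:**
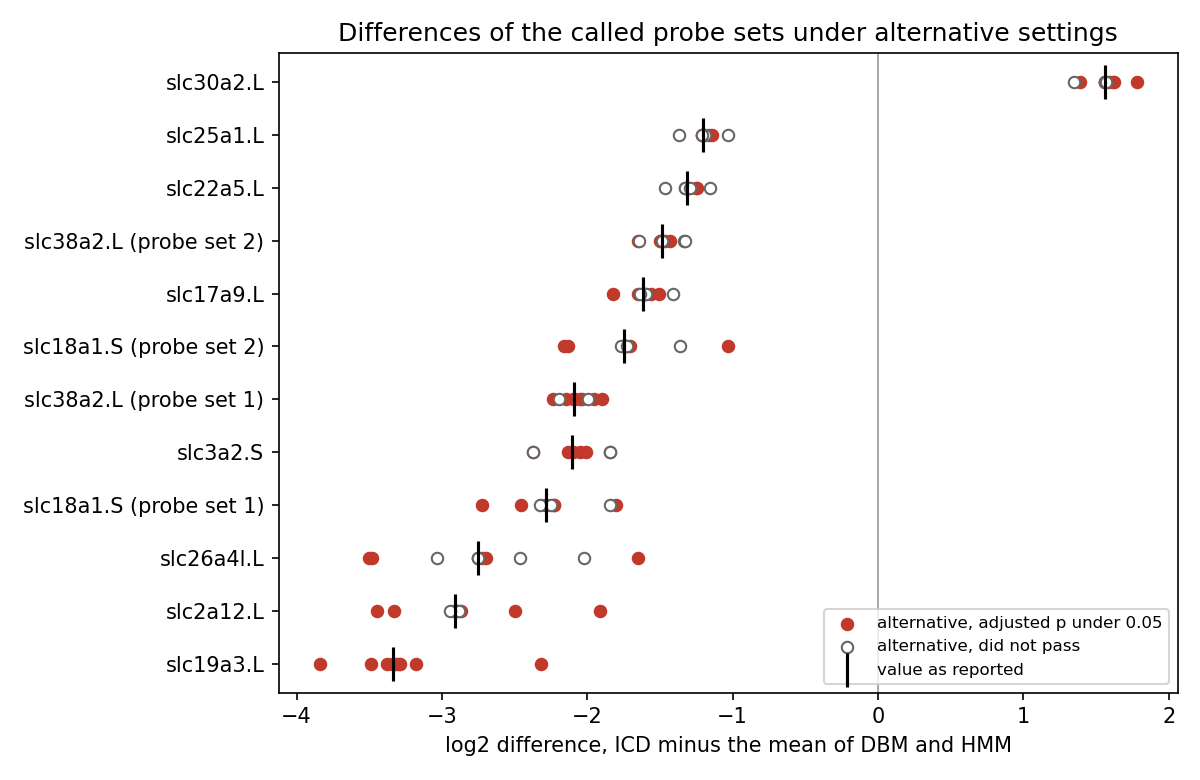
log2 difference, ICD minus the mean of DBM and HMM, of the 12 called solute carrier probe sets as reported (black bars) and under each alternative setting (points, red where the adjusted p was under 0.05 and open where it was not). slc19a3.L was past the threshold in all of its 12 settings, and every point of the 12 probe sets lies on the same side of 0 as the reported value.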

How the data were processed

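The values the authors deposited are linear MAS5 intensity values, 1 for each probe set on each array. The submitters' processing notes name MAS5, and its version is not given in the sources used here. No detection call was used, so a low signal says nothing of presence. The 4 value columns were all assigned to a sample. After 96 control probe sets were left out, each array was rescaled to the common 2% trimmed mean, log2(signal + 17.99) was taken (0.25 times the median signal of 71.95), and the 19523 probe sets whose mean signal reached the 40th percentile, 41.37, were tested. A mean was fitted for each injected RNA with limma 3.58.1 in R 4.3.3, using eBayes with an intensity trend. Tests were two-sided and p-values were adjusted by Benjamini-Hochberg. The spread comes from the ICD arrays alone (1 residual degree of freedom, beside 5.82 prior ones), and the single DBM and HMM arrays are taken to have the same spread. The number of arrays limits the precision. The script was tested on simulated data. Symbols came from the platform annotation. The Entrez identifiers of 180 of the 183 members were found in the RefSeq table. Transporter classes go by family number. The members and lists were chosen with earlier results of these data known. Probe sets named were every call, the 6 highest and 6 lowest differences, the 2 largest per class, the 6 brightest, the 4 highest and 4 lowest in DBM minus HMM, the 3 on either side of the limit, their other copies and ionocyte exchangers. A further group is marked as chosen after its values were seen. Alternatives changed the scaling, offset, filter, trend, grouping and arrays. Figures were drawn with matplotlib 3.10.9.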

Additional observations from a re-analysis of the deposited data

How the results depend on the processing

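For ICD minus the mean of DBM and HMM, the count of 12 solute carrier calls stayed between 9 and 15 with other scalings, offsets, filters, no intensity trend, or DBM pooled with HMM. It was 6 without DBM and 7 without HMM. In the pooled fit it dropped to 2 when ICD replicate 1 was left out and to 1 when ICD replicate 2 was left out, where a lone ICD array is assumed to vary like the others. All 12 calls were kept with each scaling and offset. Quantile normalization added slc16a3.L, slc22a4.L and the brighter probe set of slc30a2.L, and scaling to a common median added slc25a22l.S and the second probe set of slc17a9.L. The 8 calls against DBM became 4 without the intensity trend, and the 6 against HMM became 3 without the filter on low signal and 2 without the trend. The calls of slc22a5.L, slc25a1.L and the second probe set of slc18a1.S were lost without the filter. Of 682 values of the 58 named and tested probe sets under alternatives, none turned a called direction, 40 lost and 5 gained the call, and 34 changed sign without passing in either setting. No scaling moved the median of all probe sets by more than 0.1 on the log2 scale. No paired analysis was made, because the labels do not link arrays of different groups. The groups share only replicate number 1, which is not stated to be a pairing. The 2 ICD arrays and the lone DBM and HMM arrays limit what can be seen, and signals near the limit depend on the offset.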
